A study of Gallus gallus with 20 samples.

Results

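Scale mesenchyme is the embryonic dermis of the chicken foot, the connective tissue that lies under the epidermis of the scale-forming metatarsal skin. It was followed between embryonic day (E) 9, the stage labelled undifferentiated, and E11, the stage labelled differentiated. Its 5 arrays were taken by their titles from the 20 arrays of the series: 3 arrays of E11 scale mesenchyme (E11sm) and 2 arrays of E9 scale mesenchyme (E9sm). The other groups, used here only to show where the scale dermis differed, were scale epithelium (E11se, 3 arrays; E9se, 2 arrays), feather mesenchyme of the dorsal skin (E9fm, 3 arrays; E7fm, 2 arrays) and feather epithelium (E9fe, 3 arrays; E7fe, 2 arrays). All embryos were untreated White Leghorns, every array held RNA of pooled skin, and the titles number the arrays as biological replicates. Epidermis and dermis were pulled apart after EDTA treatment, so each dermal sample is a bulk tissue of fibroblast precursors, vessels, nerves and blood. An Affymetrix chicken array gave a level on the log2 scale for 38382 probe sets, which stand for 13009 named genes. A difference of 1 on this scale is a 2-fold change in level.

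The dermis of bird skin does more than carry the epidermis. Its mesenchyme sends the signals that tell the overlying epidermis whether to build a feather or a scale, and the epidermal placode signals back. Over the days in which scale ridges first appear, dermal cells also lay down collagen and proteoglycan matrix while vessels and nerves grow in. WNT, BMP, FGF and Hedgehog proteins carry much of this exchange, and transcription factors such as TWIST2, PRRX1 and the FOX and EBF families mark the fibroblast lineage.

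The arrays were alike in scale, with medians between 5.62 and 5.69 log2 and a lowest level of 2.36 log2. Dermal and hindlimb genes were high in all 5 scale mesenchyme arrays, but not every dermal gene checked set dermis apart from epidermis. TWIST2, a transcription factor of dermal precursors, had 12.49, 12.65 and 12.11 log2 in E11sm and 12.96 and 12.60 log2 in E9sm. It was at 4.24 to 7.36 log2 in scale epithelium and 3.34 to 9.39 log2 in feather epithelium. PDGFRA and LUM were likewise lower in scale epithelium, at up to 5.29 and 9.15 log2 there. COL1A2, a collagen gene, did not set the tissues apart, at 13.68 to 14.08 log2 in scale mesenchyme and 13.50 to 13.91 log2 in scale epithelium. TBX4, which specifies the hindlimb, had 10.70, 10.20 and 10.11 log2 in E11sm and 11.16 and 10.17 log2 in E9sm. TBX5, its forelimb counterpart, was at 5.02 to 5.63 log2 in the same arrays. ZIC1, a transcription factor that in these arrays was highest in dorsal mesenchyme, reaching 12.22 log2 there, had 6.98, 6.98 and 5.67 log2 in E11sm and 3.75 and 6.59 log2 in E9sm, so E9sm replicate 1 was the lowest. The epidermal genes TP63 and CDH1 were low but measurable, at 6.99 to 7.62 log2 and 6.59 to 8.01 log2, against 10.77 to 11.28 log2 and 12.39 to 12.78 log2 in scale epithelium. KRT14 was higher, at 8.05 to 9.28 log2 in scale mesenchyme, against 11.85 to 13.64 log2 in scale epithelium. KRT5 had 5.31 to 8.39 log2, against 12.20 to 13.39 log2, and EPCAM 6.66 to 7.96 log2, against 12.93 to 13.13 log2. Labels of other groups are in doubt in 2 arrays. The arrays labelled E9fe replicate 1 and E9fm replicate 1 stood apart from their groups, and E9fm replicate 1 had 10.39 log2 of TBX4, against 5.29 and 5.35 log2 in E9fm replicates 2 and 3. Counts of probe sets that passed are also given without them. The 2-fold counts, distances, shared directions and correlations that involve feather tissue keep them, unless an array is said to be left out.

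The first question was how far the scale dermis moved between E9 and E11. No probe set passed in E11sm against E9sm at an adjusted p of 0.05 (limma with Benjamini-Hochberg adjustment over 38382 probe sets, 0% called), and the lowest adjusted p was 0.468. An unadjusted p below 0.05 was given to 1041 probe sets, 2.71% of those tested, against 1919 expected if none differed. The share was 10.2% in scale epithelium, 9.02% in feather mesenchyme and 6.58% in feather epithelium. In scale mesenchyme it was 4.36% without the doubted E9fe and E9fm arrays and 7.51% with the arrays weighted, and none passed in either. Leaving out 1 array of another tissue gave 2.37% to 3.52%. The share thus depended on the fit, and why was not tested. With all arrays and no weights, the fit called 260 probe sets (0.677%) in E11se against E9se and 200 (0.521%) in E9fm against E7fm. It called 246 (0.641%) in E9fe against E7fe, and each comparison also had 3 later and 2 earlier arrays by their labels. The methods text of the study divides the arrays among the groups in another way, with more arrays for mesenchyme than for epithelium, so the size of the E9sm group itself is in doubt. Without the doubted E9fe and E9fm arrays the counts were 0 in scale mesenchyme, 648 in scale epithelium, 871 in feather mesenchyme and 855 in feather epithelium. The contrast between tissues depended on the pooled fit. With a fit to only the 2 groups compared, 162 passed in scale epithelium, 3 in feather mesenchyme, 33 in feather epithelium and none in scale mesenchyme. Counted by size alone, the means of E11sm and E9sm lay more than 2-fold apart for 306 probe sets (0.797%), of which 216 (0.563%) were higher and 90 (0.234%) lower in E11sm. The corresponding counts were 944 (2.46%) in scale epithelium, 1091 (2.84%) in feather mesenchyme and 941 (2.45%) in feather epithelium. By direction, 0.881% were higher and 1.58% lower at the later stage in scale epithelium, 1.36% and 1.48% in feather mesenchyme, and 1.03% and 1.43% in feather epithelium. In scale mesenchyme the balance turned with single arrays, to 28 higher and 53 lower without E9sm replicate 1 and to 224 higher and 261 lower without E11sm replicate 2. The typical probe set differed less between tissues, as the median absolute difference was 0.13 log2 in scale mesenchyme, against 0.20 log2 in scale epithelium, 0.19 log2 in feather mesenchyme and 0.14 log2 in feather epithelium.

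Distances between whole arrays placed the 2 stages of scale mesenchyme no farther apart than replicates of 1 stage. The root mean square difference over all probe sets averaged 0.430 ± 0.096 log2 between E11sm and E9sm arrays (SD over 6 pairs of arrays), 0.442 log2 among the E11sm arrays (0.365 to 0.519) and 0.446 log2 between the E9sm arrays. Between stages it averaged 0.511 log2 in scale epithelium, 0.545 log2 in feather mesenchyme and 0.499 log2 in feather epithelium. With all arrays kept, the later replicates of these tissues too lay about as far from each other, at 0.497, 0.587 and 0.480 log2 on average. The earlier replicates lay closer, at 0.324 log2 for E9se, 0.304 log2 for E7fm and 0.406 log2 for E7fe. The feather averages include the doubted arrays. E9fe replicates 2 and 3 lay 0.343 log2 from each other and 0.446 to 0.546 log2 from the E7fe arrays. E9fm replicates 2 and 3 lay 0.499 log2 from each other and 0.445 to 0.627 log2 from the E7fm arrays. Scale mesenchyme thus had the shortest mean distance between stages of the 4 tissues, and its 2 earlier arrays the longest distance from each other.

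**Figure D1:**
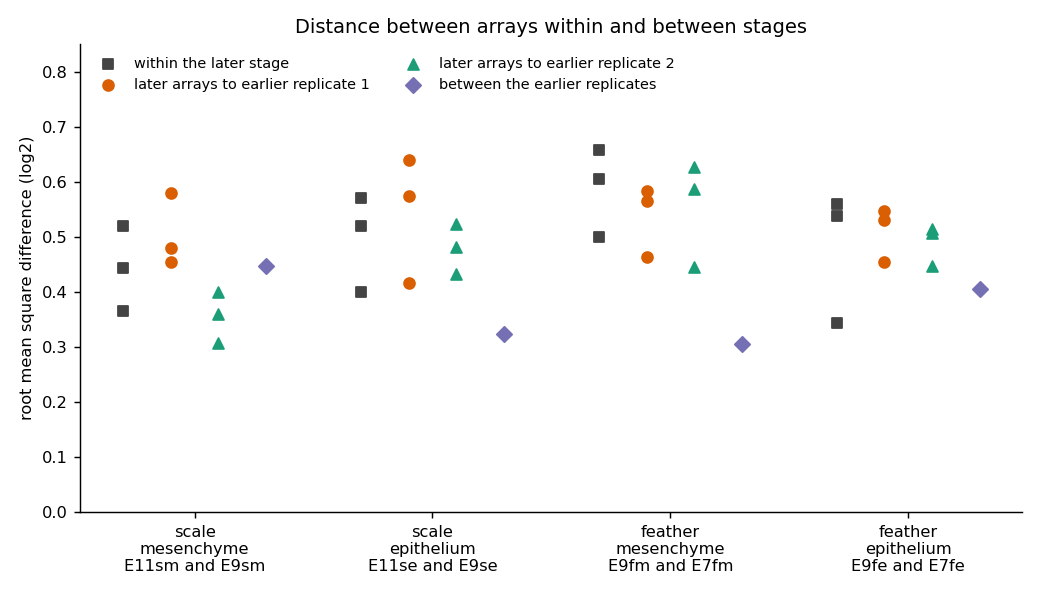
Root mean square difference between pairs of arrays over all probe sets (log2, y axis) in each tissue (x axis). Squares are pairs within the later stage, circles and triangles pair each later array with earlier replicate 1 or 2, and the diamond is the pair of earlier arrays. In scale mesenchyme the triangles, E11sm arrays to E9sm replicate 2, lie at 0.307 to 0.399 log2, all below the circles to E9sm replicate 1, at 0.454 to 0.579 log2.

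The 2 E9sm arrays did not place the starting point at the same level. E9sm replicate 2 lay 0.307 to 0.399 log2 from the 3 E11sm arrays, nearer to them than to E9sm replicate 1. E9sm replicate 1 lay 0.454 to 0.579 log2 from the E11sm arrays, 0.506 log2 on average from E7fm and 0.436 log2 from the array labelled E9fm replicate 1. E9sm replicate 2 lay 0.492 log2 on average from E7fm and 0.488 log2 from E9fm replicate 1. The distance to E7fm thus did not set the 2 E9sm arrays apart. E9fm replicate 1 itself lay nearer to E11sm replicate 1, at 0.393 log2, than to either E9sm array. The E11sm mean was more than 2-fold from E9sm replicate 1 for 1511 probe sets (3.94%) and from E9sm replicate 2 for 81 (0.211%), and 1414 probe sets (3.68%) separated the 2 E9sm arrays from each other. In all, 15 probe sets lay more than 2-fold from both in the same direction. In the other tissues 610 (scale epithelium), 768 (feather mesenchyme) and 612 (feather epithelium) did so. The named genes that did so in scale mesenchyme were DSP, FOXD2, KRT5, MTCL1 and OSR2, higher in E11sm, and PI15, lower. DSP and KRT5 are epidermal genes, and the arrays of KRT5 overlapped. MTCL1 had 6.95, 6.63 and 6.42 log2 in E11sm, against 5.04 and 5.61 log2 in E9sm, but the median over its 6 probe sets was 0.023 log2. Of the 306 probe sets past 2-fold in scale mesenchyme, 301 were more than 2-fold from E9sm replicate 1 and 20 from E9sm replicate 2.

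The answer on stability therefore depended on which E9sm array was used. With E9sm replicate 2 left out, 37 probe sets passed, 24 higher and 13 lower in E11sm. With E9sm replicate 1 left out, none passed, and 313 had an unadjusted p below 0.05. In fits that likewise kept 1 earlier array, scale epithelium gave 19 or 119 calls, feather mesenchyme 53 or 33 and feather epithelium 48 or 82. Set against E9sm replicate 1 alone, scale mesenchyme thus lay within the range of the other tissues, and set against E9sm replicate 2 alone it lay below all of them. When the doubted E9fe and E9fm arrays were also left out the counts were 468 without E9sm replicate 2 and 0 without E9sm replicate 1. Both E9sm arrays carry the same labels, and what sets them apart cannot be told from these data.

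**Figure D2:**
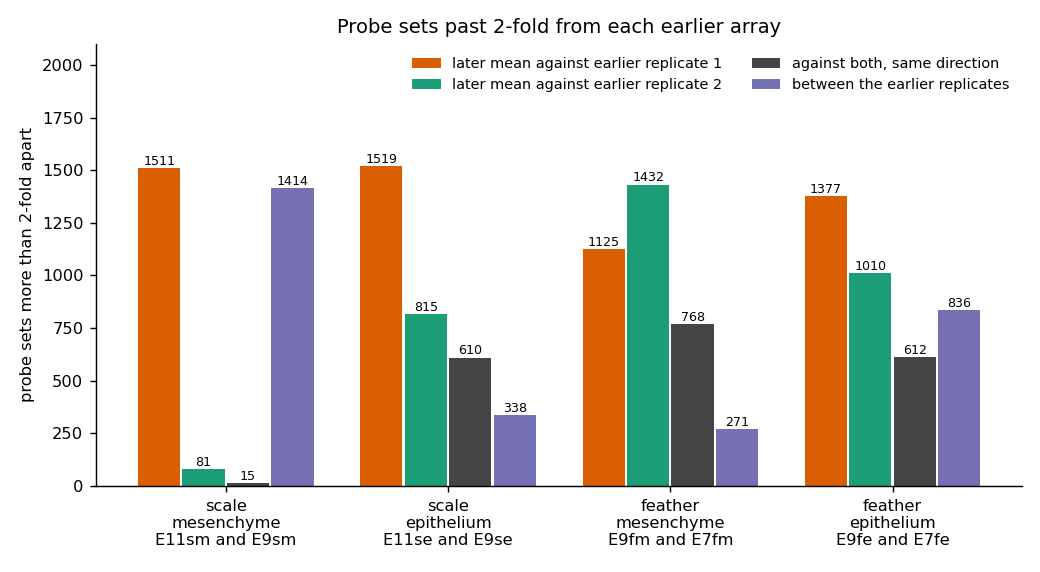
Number of probe sets more than 2-fold apart (y axis, bars start at 0) in each tissue (x axis): the mean of the later arrays against each earlier array alone, against both in the same direction, and between the 2 earlier arrays. Scale mesenchyme shows 1511 probe sets against E9sm replicate 1, 81 against E9sm replicate 2 and 15 against both.

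The genes with the largest differences showed the same split. They were taken as the 12 largest in each direction among genes whose E11sm and E9sm arrays did not overlap, a state reached by 6.23% of named genes in the higher direction and 9.51% in the lower. Genes with overlapping arrays were left out even where the difference was large. SST1, for example, had 11.79, 12.06 and 11.71 log2 in E11sm, against 7.89 and 11.78 log2 in E9sm. All 12 higher genes were more than 2-fold from E9sm replicate 1, and 1 of them, FOXD2, was so from E9sm replicate 2. In 11 of the 12, E9sm replicate 2 was nearer to the E11sm mean than to E9sm replicate 1. None passed the test on all arrays, with adjusted p = 0.99995 for each (limma).

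FOXD1, a forkhead transcription factor of embryonic stroma, had the largest difference. Its level was 10.72, 10.60 and 10.75 log2 in E11sm, against 5.15 and 10.46 log2 in E9sm, a difference of 2.88 ± 1.38 log2 (SE). E9sm replicate 2 and the 3 E11sm arrays were equally high, and E9sm replicate 1 alone was low. The other transcription factors among the 12 had the same order of arrays. EBF1, an early B cell factor family member that also acts in mesenchyme, had 9.15, 8.55 and 9.25 log2 in E11sm, against 5.99 and 8.16 log2 in E9sm. TRPS1, a GATA-type repressor needed for normal hair and bone, had 9.01, 9.47 and 8.97 log2 in E11sm, against 5.72 and 8.71 log2 in E9sm. FOXD2 differed from these: it had 7.75, 4.43 and 4.86 log2 in E11sm, against 3.42 and 4.23 log2 in E9sm, so that its difference of 1.85 log2 rested on E11sm replicate 1.

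Several of the largest genes encode secreted signals or their modulators. BMP6, a bone morphogenetic protein ligand, had 8.22, 7.73 and 7.72 log2 in E11sm, against 4.17 and 7.39 log2 in E9sm. GDF10, a relative of the BMP ligands, had 9.18, 9.37 and 8.73 log2 in E11sm, against 6.38 and 8.54 log2 in E9sm. FGF18, a fibroblast growth factor made by mesenchyme, had 6.49, 7.11 and 6.41 log2 in E11sm, against 3.96 and 5.95 log2 in E9sm. In each, E9sm replicate 2 sat just under the E11sm arrays. FRZB, a secreted WNT inhibitor, had 10.49, 10.14 and 10.22 log2 in E11sm, against 7.58 and 9.83 log2 in E9sm, and passed when E9sm replicate 2 was left out, as did NDNF and ITIH5. NDNF, a secreted protein with fibronectin type III domains, had 11.43, 11.27 and 11.20 log2 in E11sm, against 7.15 and 10.98 log2 in E9sm. ITIH5, a hyaluronan-binding matrix protein, had 8.66, 8.80 and 8.74 log2 in E11sm, against 5.99 and 8.41 log2 in E9sm. TGFBI, a matrix protein bound by integrins, and EMID1, an extracellular matrix protein, completed the 12 with differences of 1.47 and 1.48 log2. The other probe set of EMID1 gave a difference of only 0.21 log2.

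All 12 of the higher genes also had a positive difference in feather mesenchyme, E9fm minus E7fm, and 1 of them, GDF10, passed there (adjusted p = 0.041, limma). Of all 810 genes higher without overlap in E11sm, 567 (70.0%) were also higher in E9fm than in E7fm. Among the 12 non-overlapping genes with the largest differences in the lower direction, 8 had a negative difference in feather mesenchyme and 0 passed there. Of all 1237 genes lower without overlap, 937 (75.7%) had a negative difference there. The share of all named genes with each direction in feather mesenchyme was not counted, so no excess is read from these counts. The E9fm means include the doubted E9fm replicate 1. FOXD1 had 11.67 and 12.26 log2 in E9fm replicates 2 and 3, against 7.20 and 5.36 log2 in E7fm, while E9fm replicate 1 had 6.56 log2. TRPS1 had 10.34 and 10.26 log2 in E9fm replicates 2 and 3, against 5.03 and 5.53 log2 in E7fm, while E9fm replicate 1 had 5.64 log2. E9sm replicate 1 and the array labelled E9fm replicate 1 were thus closer to E7fm than to E9fm replicates 2 and 3 for both genes, and E9sm replicate 2 was not. Across all 13009 genes the stage differences of scale and feather mesenchyme correlated with Pearson's r = 0.39 and Spearman's rho = 0.37. With scale epithelium r was 0.16 and rho 0.21, and with feather epithelium r was 0.028 and rho 0.026. The size of the gap between these tissues depended on the E9sm array. Against E9sm replicate 1 alone r was 0.35 with feather mesenchyme and 0.070 with scale epithelium, and against E9sm replicate 2 alone it was 0.26 and 0.25. This is a description across genes, which are not independent replicates and share the array and its probe sets.

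**Figure D3:**
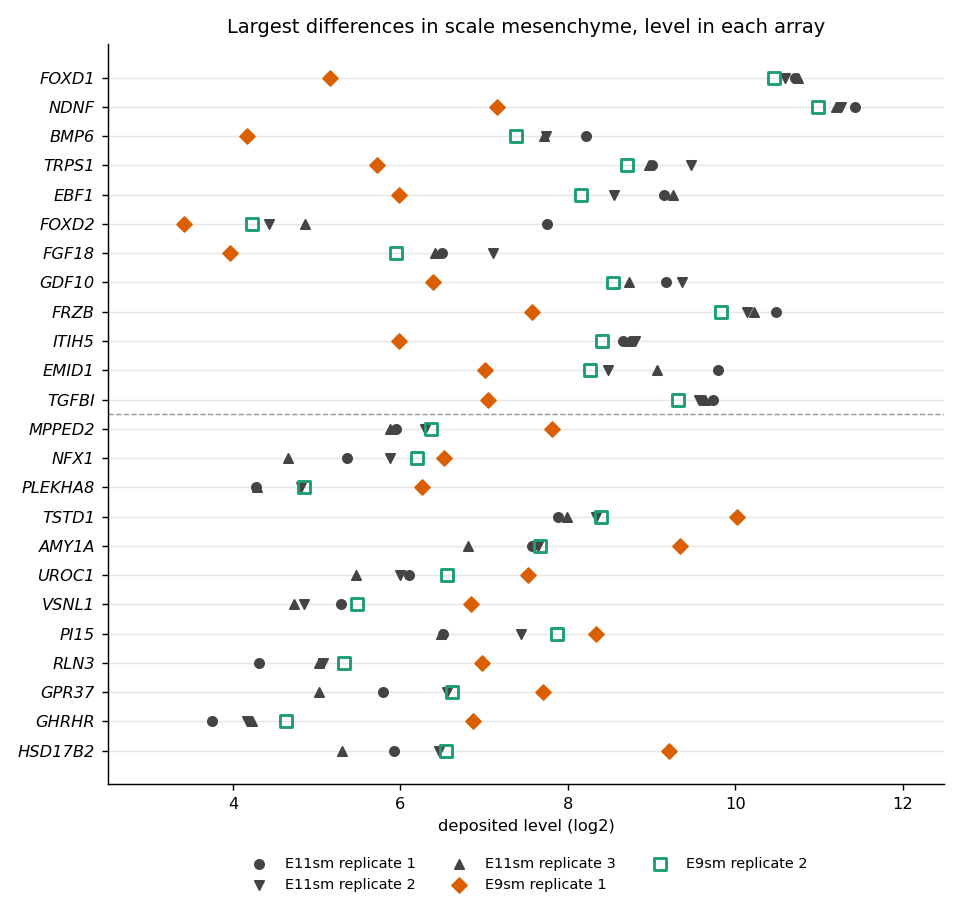
Level (log2, x axis) of the 12 genes with the largest non-overlapping differences in each direction, E11sm minus E9sm (y axis, split by the dashed line), in each of the 5 scale mesenchyme arrays. Filled dark markers are the E11sm arrays, the diamond is E9sm replicate 1 and the open square E9sm replicate 2. For FOXD1 the open square stands at 10.46 log2 beside the E11sm arrays and the diamond at 5.15 log2.

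The 12 non-overlapping genes with the largest differences in the lower direction were smaller in size, from 1.05 to 1.98 log2. Adjusted p was 0.99995 for each (limma). Genes with overlapping arrays are not among them, and over all named genes the lowest difference was -2.08 log2. TAC1, whose arrays overlapped, had 5.36, 5.82 and 4.94 log2 in E11sm, against 9.57 and 5.33 log2 in E9sm. HSD17B2, which inactivates oestrogens and androgens, had 5.93, 6.46 and 5.30 log2 in E11sm, against 9.20 and 6.54 log2 in E9sm. The other probe set of HSD17B2 gave a difference of only -0.11 log2. GHRHR, the receptor for growth hormone releasing hormone, had 3.74, 4.17 and 4.23 log2 in E11sm, against 6.87 and 4.63 log2 in E9sm. Both were high in E9sm replicate 1 alone, and both passed when E9sm replicate 2 was left out. RLN3, a relaxin family peptide, had 4.31, 5.07 and 5.02 log2 in E11sm, against 6.97 and 5.33 log2 in E9sm. GPR37 (an orphan receptor), VSNL1 (a neuronal calcium sensor), UROC1, AMY1A (an amylase), TSTD1, PLEKHA8 and MPPED2 lay between 1.05 and 1.37 log2 lower, with E9sm replicate 2 nearer to the E11sm mean in each. PI15, a secreted peptidase inhibitor, differed from the rest: it had 6.50, 7.44 and 6.48 log2 in E11sm, against 8.34 and 7.87 log2 in E9sm. Its 2 E9sm arrays lay nearer to each other than to the E11sm mean, which was more than 2-fold from each. NFX1, a zinc finger transcription factor, also had its 2 E9sm arrays together, with 5.36, 5.87 and 4.65 log2 in E11sm, against 6.52 and 6.19 log2 in E9sm.

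The genes with the smallest p-values held some whose E9sm arrays sat together and some whose E9sm arrays were split. Among the split ones, beside GHRHR and HSD17B2, CABLES1, which encodes a binding partner of cyclin-dependent kinases, had 7.22, 7.12 and 7.35 log2 in E11sm, against 5.34 and 6.81 log2 in E9sm. ENPEP, an aminopeptidase, had 4.90, 4.79 and 4.73 log2 in E11sm, against 3.95 and 4.47 log2 in E9sm. In other genes the E9sm arrays were closer together. AvBD1, the antimicrobial peptide avian beta-defensin 1, had 5.57, 5.84 and 6.14 log2 in E11sm, against 4.52 and 4.93 log2 in E9sm. Its difference of 1.12 ± 0.18 log2 (SE) carried the lowest adjusted p of the fit, 0.468 (limma), and it passed without E9sm replicate 2 at an adjusted p of 0.035. HGF, a growth factor that mesenchyme makes and epithelium receives through MET, had 5.58, 6.06 and 6.20 log2 in E11sm, against 5.13 and 5.16 log2 in E9sm. COL4A6, a basement membrane collagen chain, had 6.63, 6.37 and 6.35 log2 in E11sm, against 5.92 and 5.92 log2 in E9sm. In AvBD1, HGF and COL4A6 the groups did not overlap, and the 2 E9sm arrays differed from each other by less than the E11sm arrays did. LYG2, a goose-type lysozyme, was 0.74 ± 0.15 log2 (SE) higher in E11sm, but at 3.14 to 4.07 log2 in all arrays it was near the lowest levels the array gives. DNAJC24 and C19orf12, at 0.61 and 0.57 log2 lower in E11sm, were named for their small p-values alone (adjusted p = 0.99995 for each, limma).

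Genes of the dermal lineage were described by lists, in each of which no member passed. Of 45 measured dermal and mesenchymal transcription factors, 10 were higher in all E11sm arrays than in both E9sm arrays and 0 were lower, against 6.23% and 9.51% of all named genes. Of these, 6 differed by over 0.5 log2, namely FOXD1, EBF1, OSR2, RUNX2, PRRX1 and EBF2, whereas 2.03% of all named genes were that far higher without overlap and 1.5% that far lower. PRRX1, a homeobox gene of limb mesenchyme, had 10.99, 10.67 and 11.04 log2 in E11sm, against 9.91 and 10.28 log2 in E9sm. OSR2, an odd-skipped zinc finger gene of limb mesenchyme chosen after its values were seen, had 7.64, 5.99 and 6.74 log2 in E11sm, against 5.56 and 5.39 log2 in E9sm. Lying below all E11sm arrays was the condition for being counted here, and in both genes the 2 E9sm arrays also lay together. RUNX2, an osteoblast factor also expressed in early dermis, had 10.02, 10.21 and 9.82 log2 in E11sm, against 8.71 and 9.68 log2 in E9sm. The median of the list was 0.21 log2, against -0.0021 log2 over all named genes.

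Matrix genes were described by 4 lists, whose non-overlapping counts are to be read against 6.23% of all named genes higher and 9.51% lower. Of 17 measured fibrillar and associated collagens, 3 were higher without overlap in E11sm and 1 was lower, and the list median was 0.10 log2. COL6A3, a chain of the microfibrillar collagen VI, was the 1 member over 0.5 log2, with 13.04, 13.01 and 12.93 log2 in E11sm, against 11.82 and 12.82 log2 in E9sm. LUM, the collagen-binding proteoglycan lumican, chosen after its values were seen, was between 13.25 and 13.54 log2 in all 5 arrays. Of 36 matricellular, elastic and proteoglycan genes 2 were higher and 3 lower without overlap. THBS2, a thrombospondin, had 10.12, 10.63 and 10.27 log2 in E11sm, against 8.82 and 10.08 log2 in E9sm. EFEMP1, a fibulin, had 7.68, 7.79 and 7.65 log2 in E11sm, against 8.74 and 7.91 log2 in E9sm. Of 36 matrix proteases and inhibitors 2 were higher and 3 lower, and of 23 basement membrane genes 1 was higher and 0 lower, with a list median of 0.31 log2. E9sm replicate 1 was the lowest of the 5 arrays by over 0.5 log2 for 22.2% to 29.4% of the members of these lists, against 4.75% of all named genes.

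Among the signalling pathways, more members lay higher than lower in E11sm for FGF and EGF (12 and 3 of 62), WNT (8 and 4 of 61) and BMP (5 and 1 of 37). Over all named genes 6.23% were higher and 9.51% lower in this way, without overlap. E9sm replicate 1 was the lowest array by over 0.5 log2 for 19.4% (FGF and EGF), 14.8% (WNT) and 24.3% (BMP) of members, against 4.75% of all named genes. The list medians were 0.25, 0.15 and 0.27 log2 against E9sm replicate 1 alone. Against E9sm replicate 2 alone they were 0.093, 0.047 and 0.13 log2. For TGF-beta and activin the counts were 1 and 3 of 24, for Hedgehog 2 and 2 of 17, for Notch 2 and 1 of 24 and for retinoic acid 2 and 2 of 21. The ligand FGF2 had 7.45, 7.53 and 7.25 log2 in E11sm, against 5.15 and 7.19 log2 in E9sm. FZD8, a WNT receptor, had 5.61, 5.49 and 5.78 log2 in E11sm, against 3.98 and 5.12 log2 in E9sm. Both were low in E9sm replicate 1 and, in replicate 2, close to the E11sm arrays. INHBA, a subunit of activin, had 9.44, 9.67 and 8.77 log2 in E11sm, against 10.82 and 9.84 log2 in E9sm. BMPR1A, a BMP receptor, had 7.97, 8.26 and 8.01 log2 in E11sm, against 9.13 and 8.50 log2 in E9sm. GLI2, a transcription factor of the Hedgehog pathway, had 8.71, 8.90 and 8.65 log2 in E11sm, against 7.72 and 8.52 log2 in E9sm. Over the pathway lists the median difference lay between 0.0028 log2 (Hedgehog) and 0.19 log2 (FGF and EGF).

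Cell cycle genes lay to 1 side. Of 60 measured members 22 were lower without overlap in E11sm and 0 were higher, against 9.51% and 6.23% of all named genes, and the list median was -0.17 log2. It was -0.13 log2 against E9sm replicate 2 alone and -0.25 log2 against E9sm replicate 1 alone. The differences were small: CCNB3, a B-type cyclin, was the 1 non-overlapping member over 0.5 log2, and 1 member had an unadjusted p below 0.05. PCNA, the DNA polymerase clamp, had 12.11, 12.19 and 12.20 log2 in E11sm, against 12.43 and 12.47 log2 in E9sm. BIRC5, a mitotic survivin, had 9.48, 9.60 and 9.49 log2 in E11sm, against 9.91 and 10.11 log2 in E9sm. These genes, PCNA and BIRC5, were chosen after their values were seen. In both, the 2 E9sm arrays lay together above the E11sm arrays.

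The markers of vessels moved with the E9sm split more than any other list. Over 38 measured endothelial markers the median difference was 0.65 log2, but it was 1.23 log2 against E9sm replicate 1 and -0.074 log2 against E9sm replicate 2. E9sm replicate 1 was the lowest of the 5 arrays for 31 of the 38, against 23.7% of all named genes. The mean level of the list was 7.51, 7.65 and 7.29 log2 in E11sm, against 6.30 and 7.54 log2 in E9sm. CDH5, the cadherin of endothelial junctions, chosen after its values were seen, had 10.68, 11.11 and 10.40 log2 in E11sm, against 8.22 and 10.95 log2 in E9sm. TIE1 and ERG, an endothelial receptor and transcription factor, were 0.94 and 0.97 log2 higher in E11sm without overlap. In bulk tissue fewer endothelial cells and less RNA per endothelial cell cannot be told apart. The part of vessel content in the other differences of E9sm replicate 1 was not tested.

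The lists of other cell types had smaller medians. Of 35 epidermis markers 5 were higher without overlap in E11sm and 1 was lower, against 6.23% and 9.51% of all named genes, the shares that apply to each list. DSP, the desmosomal plaque protein of epithelia, had 7.12, 6.24 and 6.42 log2 in E11sm, against 5.38 and 5.33 log2 in E9sm. KRT7, a simple epithelial keratin, had 8.54, 7.44 and 7.87 log2 in E11sm, against 6.84 and 7.26 log2 in E9sm. Their levels in E11se averaged 12.4 and 12.8 log2. The mean of the epidermis list was 6.32, 5.92 and 6.27 log2 in E11sm, against 5.97 and 5.95 log2 in E9sm, so E11sm replicates 1 and 3 stood above the other 3 arrays. The part of epidermal RNA in the E11sm values was not tested. Among 38 nerve and glia markers, RTN1, a reticulon of neurons, had 11.08, 10.92 and 10.92 log2 in E11sm, against 8.86 and 10.70 log2 in E9sm, and passed without E9sm replicate 2. FABP7, a fatty acid binding protein of glial precursors, had 7.19, 7.52 and 7.02 log2 in E11sm, against 8.32 and 7.90 log2 in E9sm. Of the 38 nerve and glia markers 4 were higher and 2 lower without overlap, with a median of 0.085 log2. The median was 0.18 log2 against E9sm replicate 1 alone and -0.0017 log2 against E9sm replicate 2 alone. SOX10, a further gene of this list, was higher in E11sm. Tendon and ligament markers had 5 of 18 higher without overlap and 1 lower. MKX, a homeobox regulator of tendon, had 5.76, 6.21 and 5.36 log2 in E11sm, against 3.29 and 5.35 log2 in E9sm. LECT1, which encodes the cartilage protein chondromodulin, had 10.04, 10.32 and 10.11 log2 in E11sm, against 10.87 and 10.88 log2 in E9sm. Of 24 measured cartilage markers 4, LECT1 among them, were lower without overlap and 2 were higher. The list median was -0.0035 log2. CXCR4, a chemokine receptor of leukocytes and vessels, had 6.69, 6.92 and 6.05 log2 in E11sm, against 7.29 and 7.35 log2 in E9sm. Of 33 measured macrophage and leukocyte markers 2 were higher and 5 lower without overlap, with a median of 0.049 log2. The median was 0.19 log2 against E9sm replicate 1 alone and -0.22 log2 against E9sm replicate 2 alone. AvBD1, also on this list, was higher in E11sm. Skeletal muscle genes were near the low end of the array, with list means between 4.94 and 5.15 log2.

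**Figure D4:**
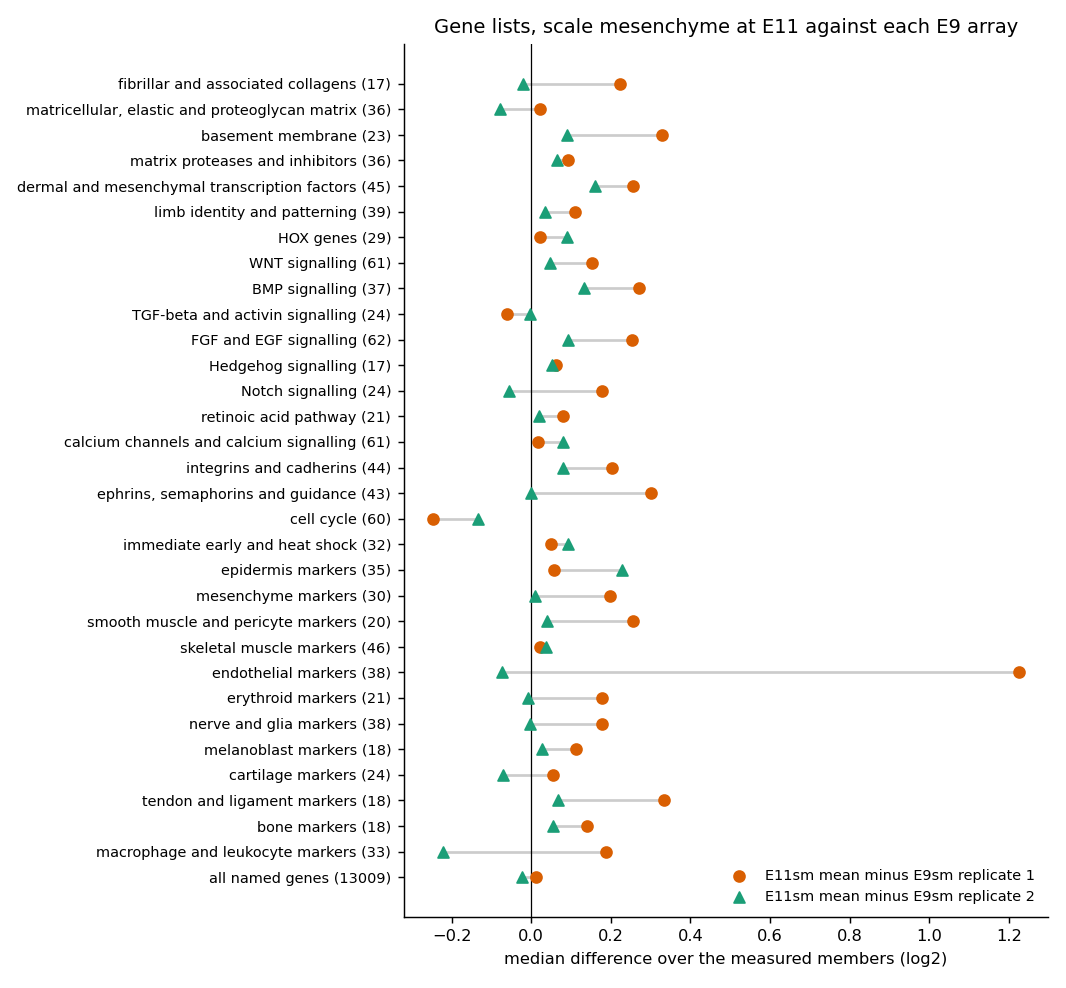
Median difference over the measured members of each of 31 gene lists and over all named genes (log2, x axis; number of members in brackets). Circles set the E11sm mean against E9sm replicate 1 and triangles against E9sm replicate 2. Endothelial markers stand at 1.23 and -0.074 log2, and cell cycle genes are below 0 against both, at -0.25 and -0.13 log2.

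The study measured genes of calcium signalling by RT-qPCR in broiler embryos, mainly to compare feather with scale skin, and its channel subunits in epithelium. The stage differences of scale mesenchyme given here are another comparison and do not bear on those results. Of 61 measured calcium channel and calcium signalling genes, 5 were higher and 3 lower without overlap in E11sm, near the 6.23% and 9.51% of all named genes, and none passed. The 15 genes from the RT-qPCR panel that the array names had differences between -0.35 and 0.89 log2, with a median of 0.021 log2, and 2 did not overlap. PRKCB, a protein kinase C, had 5.18, 5.23 and 5.001 log2 in E11sm, against 4.72 and 4.72 log2 in E9sm. CAMK4, a calmodulin-dependent kinase, had 6.68, 6.35 and 6.45 log2 in E11sm, against 5.87 and 6.29 log2 in E9sm. CACNA2D3, an auxiliary calcium channel subunit, had 3.89, 3.87 and 6.58 log2 in E11sm, against 3.80 and 3.97 log2 in E9sm, so its 0.89 log2 came from E11sm replicate 3. CACNA1D, a voltage-gated channel, was low in every scale mesenchyme array, at 3.21, 3.61 and 3.57 log2 in E11sm and 3.60 and 3.45 log2 in E9sm.

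The last question was whether the stage change of scale mesenchyme differed from that of another tissue, which was tested as a difference of differences. It differed from scale epithelium for 4 probe sets (0.0104%), 3 in the positive and 1 in the negative direction. It differed from feather mesenchyme for 17 (0.0443%), 16 positive and 1 negative, and from feather epithelium for 32 (0.0834%), 25 positive and 7 negative (limma, adjusted p below 0.05). In all 4, all 17 and all 32 the change was the smaller in scale mesenchyme, and all passed in the other tissue. The median size of the change was 0.056 log2 in scale mesenchyme and 3.50 log2 in scale epithelium for the first set, 0.14 log2 and 2.43 log2 (feather mesenchyme) for the second, and 0.18 log2 and 2.41 log2 (feather epithelium) for the third. These sets were chosen for the difference, so the sizes describe them. Without E9sm replicate 1 the counts were 0, 20 and 11, and without E9sm replicate 2 they were 24, 21 and 50. Without the doubted arrays they were 122, 146 and 378. With only probe sets of a mean above 6 log2 they were 0, 5 and 17, so many of the differences lay in dim probe sets.

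Of the named genes, 5 fell in feather mesenchyme and differed by less than 0.5 log2 between E11sm and E9sm. LIX1, a limb and nerve gene of the chick, had 3.20, 3.23 and 3.69 log2 in E11sm and 3.40 and 3.24 log2 in E9sm, while E9fm had 3.59, 3.27 and 3.40 log2, against 6.14 and 6.70 log2 in E7fm. FRK, a tyrosine kinase of the Src family, had 3.88, 3.95 and 4.14 log2 in E11sm and 4.22 and 3.77 log2 in E9sm, while E9fm had 4.20, 3.73 and 3.96 log2, against 6.95 and 6.87 log2 in E7fm. NXPH1 (a neurexin ligand), DMRT1 (a sex-determining factor of birds) and UTS2B (a urotensin peptide) followed the same pattern, with differences between the tissues of 3.46, 2.36 and 2.26 log2. The levels of these 3 in scale mesenchyme are not given here, so it is not shown that a fall there could have been measured. In scale mesenchyme LIX1 and FRK were near the low end of the array at both stages, so a fall there could not have been measured. GALNTL6, a glycosyltransferase family member, had 3.81, 3.34 and 3.66 log2 in E11sm and 3.93 and 3.80 log2 in E9sm, while E11se had 4.12, 4.41 and 4.21 log2, against 6.89 and 6.44 log2 in E9se. It too was near the low end of the array in scale mesenchyme, where a fall could not have been measured.

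Against feather epithelium, POSTN gave the largest difference, -5.21 ± 0.32 log2 (SE). POSTN encodes periostin, a matricellular protein of dermis and bone lining tissue. It was already high in scale mesenchyme, at 12.64, 12.75 and 12.80 log2 in E11sm and 11.95 and 12.84 log2 in E9sm, while E9fe had 11.17, 11.19 and 11.08 log2, against 5.76 and 5.42 log2 in E7fe. CPA6 (a carboxypeptidase), GUCY1A3 (a guanylate cyclase subunit) and DSG4 (a desmosomal cadherin) likewise rose in feather epithelium, with differences of -3.27, -2.72 and -2.48 log2. FRZB was the reverse case, as it fell in feather epithelium to 7.81, 7.75 and 7.48 log2 in E9fe, against 9.95 and 10.27 log2 in E7fe, and was higher in E11sm. TMEFF2 (a transmembrane protein with follistatin domains), FGF20 (a placode ligand), DIO3 (which inactivates thyroid hormone) and LOC771085 also fell in feather epithelium, with differences between 2.90 and 3.07 log2. Their levels in scale mesenchyme are not given here, so it is not shown that a fall there could have been measured.

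**Figure D5:**
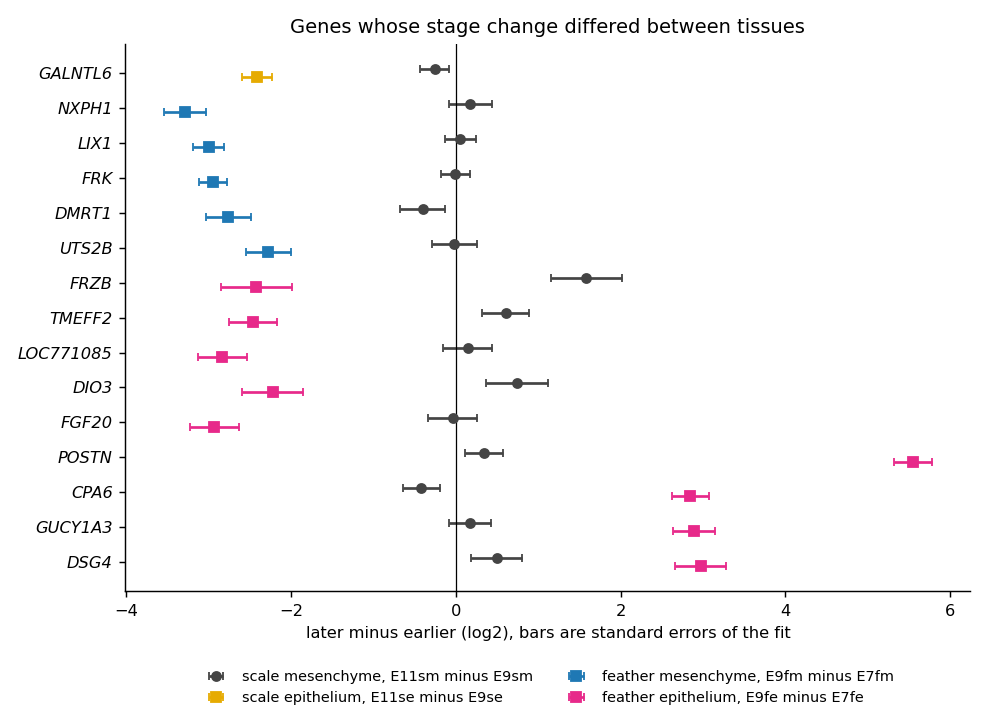
Later minus earlier difference (log2, x axis; bars are standard errors of the limma fit) for the 15 named genes whose stage change differed between scale mesenchyme (dark circles) and another tissue (coloured squares). Apart from FRZB, at 1.58 log2, the circles lie within 1 log2 of 0, while the squares lie beyond 2 log2 from 0.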

How the data were processed

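Per the labels, RNA of pooled skin was hybridised to Affymetrix chicken arrays, 1 array a sample. The authors read the arrays with the affy package and deposited a log2 level per probe set after robust multi-array averaging with quantile normalization. The versions are not given in the sources used here. The deposited log2 values were used as they stand. Of 38535 probe sets, 153 controls were left out and 38382 were tested. Of these, 27168 carried 1 gene symbol, 177 several and 11037 none, and a gene stands for its probe set with the highest mean level. A linear model of the 8 groups was fitted to all 20 arrays with limma 3.58.1 in R 4.3.3, moderated by empirical Bayes, with Benjamini-Hochberg adjustment over all probe sets and a threshold of 0.05. Named genes were the 12 largest non-overlapping in each direction, those with the smallest p, the largest over 0.5 log2 in each list, those whose stage change differed between tissues, and the RT-qPCR genes of the study. Members and lists were chosen with earlier results of these data known. Nothing in the labels says whether the pools came from separate batches, so p-values measure the spread between these arrays, and their small number limits the precision. The fit was checked on simulated data. Alternatives left out each array, the doubted arrays or dim probe sets, used 1 probe set a gene, weighted or recentred the arrays, or changed the model.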

Additional observations from a re-analysis of the deposited data

Results flagged for a closer look

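The stage change of scale mesenchyme differed from that of another tissue for 15 named genes, by a test of the difference itself (limma, adjusted over 38382 probe sets). Each value is the stage change of scale mesenchyme minus that of the other tissue. In scale mesenchyme GALNTL6, LIX1 and FRK were near the low end of the array, where a fall could not have been measured. Levels there are not given for NXPH1, DMRT1, UTS2B, TMEFF2, LOC771085, DIO3 and FGF20, so the same limit may hold for them. Against scale epithelium, GALNTL6 gave 2.16 log2 (adjusted p = 0.00595). Against feather mesenchyme, NXPH1 gave 3.46 log2 (0.000451), LIX1 3.06 log2 (6.4e-05), FRK 2.94 log2 (5.1e-05), DMRT1 2.36 log2 (0.0411) and UTS2B 2.26 log2 (0.0490). Against feather epithelium, FRZB gave 4.01 log2 (0.0181), TMEFF2 3.07 log2 (0.00641), LOC771085 2.98 log2 (0.0103), DIO3 2.97 log2 (0.0460) and FGF20 2.90 log2 (0.0149). In the negative direction there, POSTN gave -5.21 log2 (1.25e-06), CPA6 -3.27 log2 (0.000262), GUCY1A3 -2.72 log2 (0.00641) and DSG4 -2.48 log2 (0.0460). Of the 15, 6 no longer passed without E9sm replicate 1 and 4 without E9sm replicate 2.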

How the results depend on the processing

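In scale mesenchyme no probe set passed under any setting but 2: 37 passed without E9sm replicate 2, and 468 when E9fe replicate 1 and E9fm replicate 1 were also left out (a setting added once the data had been seen). Probe sets past 2-fold then numbered 1511, and 81 with E9sm replicate 1 left out in its place. Leaving out 1 array at a time gave 0 to 37 passing, 81 to 1511 past 2-fold and a stage distance of 0.355 to 0.504 log2 in scale mesenchyme. The ranges were 19 to 405, 815 to 1730 and 0.476 to 0.555 log2 in scale epithelium, 33 to 696, 909 to 1856 and 0.519 to 0.591 log2 in feather mesenchyme, and 48 to 665, 928 to 1377 and 0.489 to 0.510 log2 in feather epithelium. Differences from scale mesenchyme ranged over 0 to 24 (scale epithelium), 9 to 114 (feather mesenchyme) and 10 to 243 (feather epithelium).

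Without E9fe replicate 1 and E9fm replicate 1, 648 (scale epithelium), 871 (feather mesenchyme) and 855 (feather epithelium) passed, and the differences numbered 122, 146 and 378. With array weights these were 1325, 849, 797, 77, 68 and 168. With probe sets of a mean above 6 log2 only, 149 passed in scale epithelium and 133 in feather mesenchyme, and the differences numbered 0, 5 and 17. Past 2-fold were 195 in scale mesenchyme, 621 in scale epithelium, 697 in feather mesenchyme and 601 in feather epithelium, with distances of 0.622 log2 in feather mesenchyme and 0.581 log2 in feather epithelium. With 1 probe set per gene, 170 and 133 passed in scale epithelium and feather mesenchyme, the differences from these numbered 1 and 9, past 2-fold were 131 (scale mesenchyme), 449, 493 and 489, and the distance in feather epithelium was 0.563 log2. The last 2 settings test fewer probe sets. With a fit to only the 2 groups compared, 162 passed in scale epithelium, 3 in feather mesenchyme, 33 in feather epithelium and none in scale mesenchyme. Other causes were not tested.

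The replicate numbers share no stated batch, so they were not taken to pair the arrays. Deviations of same-numbered scale mesenchyme arrays correlated at 0.28 and 0.027. The deviations of the 2 E9sm arrays mirror each other, so these values cannot decide whether the numbers pair the arrays. With the replicate block 0 passed in scale mesenchyme, 228 in scale epithelium, 173 in feather mesenchyme and 268 in feather epithelium, with 4, 16 and 29 differences.

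The genes whose direction reversed were 9 RT-qPCR genes with small differences. The replicate block gave CACNA1D 0.12 and CACNA1C -0.079 log2, and array weights CACNA1C -0.080 log2. With the doubted arrays and E9sm replicate 1 out, CACNA1D gave 0.0100, CAMK2D 0.027, ITPKA 0.19 and SLC8A3 0.27 log2. With E9sm replicate 2 out in its place, ORAI1 gave -0.028, CACNA1C -0.13 and CACNA1G -0.051 log2. The median over probe sets gave CAMK2D 0.022, CACNA1C -0.079 and CACNA1G -0.15 log2. Over left-out arrays, CACNA1D ranged over -0.13 to 0.064, CAMK2D -0.27 to 0.027, ITPKA -0.35 to 0.19, SLC8A3 -0.39 to 0.27, ORAI1 -0.068 to 0.0965, CACNA1C -0.13 to 0.17, CACNA1G -0.054 to 0.26, ATP2B1 -0.39 to 0.091 and CACNA2D3 -0.0074 to 1.35 log2. Levels near 3 to 4 log2 lie at the low end of the array, where a fall cannot be measured.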

Other observations

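Further lists, and lists above whose counts were not given, had these counts. Of 29 measured HOX genes 5 were higher and 3 lower without overlap in E11sm, against 6.23% and 9.51% of all named genes, the shares that also apply to the lists that follow. HOXB7 had 6.67, 6.68 and 6.60 log2 in E11sm, against 5.57 and 6.29 log2 in E9sm. HOXD12, a gene of the distal limb, had 6.02, 6.57 and 6.06 log2 in E11sm, against 6.86 and 6.84 log2 in E9sm, and its 2 E9sm arrays lay together. Of 44 integrins and cadherins 7 were higher and 2 lower, and ITGA3, a laminin-binding integrin chain, had 8.70, 8.25 and 8.41 log2 in E11sm, against 7.56 and 7.87 log2 in E9sm. Of 43 ephrin, semaphorin and guidance genes 0 were higher and 3 lower, although the list median was positive, at 0.22 log2. It was 0.30 log2 against E9sm replicate 1 alone and -0.0014 log2 against E9sm replicate 2 alone. ROBO1, a receptor for Slit guidance proteins, had 6.78, 6.71 and 6.72 log2 in E11sm, against 7.92 and 6.92 log2 in E9sm. None of these genes passed (adjusted p = 0.99995 for each, limma).

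PITX1, which specifies the hindlimb together with TBX4, chosen after its values were seen, had 9.87, 10.07 and 9.48 log2 in E11sm, against 11.28 and 9.91 log2 in E9sm. E9sm replicate 1 was the highest of the 5 arrays for both genes. The melanoblast gene SOX10, also a marker of glia, had 8.65, 8.31 and 8.18 log2 in E11sm, against 7.64 and 7.96 log2 in E9sm. Counts higher and lower without overlap were 3 and 0 of 18 melanoblast markers and 4 and 1 of 39 limb identity genes. They were 5 and 2 of 30 mesenchyme markers and 4 and 2 of 32 immediate early and heat shock genes. For bone markers they were 3 and 1 of 18, and for smooth muscle and pericyte markers 2 and 0 of 20. Erythroid markers gave 0 and 1 of 21, endothelial markers 4 and 1 of 38 and skeletal muscle markers 5 and 2 of 46.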
